A study of Homo sapiens with 6 samples.

Results

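The genes described here are 43 genes of DNA replication and nucleotide synthesis, taken by gene symbol from a table of 60617 genes. They encode the sliding clamp and its loader, the 3 replicative DNA polymerases, the cofactors of the replicative helicase, the factors that mark and license origins, the single-strand binding complex, enzymes that finish the lagging strand, enzymes that make deoxynucleotides, and factors that restore DNA methylation and chromatin behind the fork. The subunits of the MCM helicase were left out of the set. Each of the 43 symbols matched 1 Ensembl gene, and all 43 passed the filter on low counts that left 18505 genes for testing.

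RNA was sequenced from YTHDF1 knockout A549 cells and from wild-type A549 cells, 3 libraries each. A549 is a human lung cancer cell line, and YTHDF1 is a reader protein of N6-methyladenosine in mRNA. Both groups were grown in the same RPMI medium with fetal bovine serum, and no treatment or time is given for either. The labels call the libraries biological replicates but do not say whether they come from separate cultures or clones, nor which part of YTHDF1 was edited, so p-values measure only the spread among these libraries.

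DNA replication starts at origins bound by the origin recognition complex, where CDC6 and CDT1 load the helicase before S phase. In S phase CDC45 and the GINS complex activate that helicase, polymerase alpha-primase lays down primers, and the clamp loader places PCNA, the ring that holds polymerases delta and epsilon on DNA. Ribonucleotide reductase, thymidine kinase and thymidylate synthase supply the deoxynucleotides. Many of these genes are known as targets of E2F transcription factors and are transcribed most in dividing cells.

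Total counts were 32037107, 40675628 and 40186533 in the knockout libraries and 38225388, 27238817 and 40460782 in the wild-type libraries. Levels are given as CPM, the count of a gene scaled to the TMM-adjusted library size, unless stated, log2 fold changes are knockout over wild type with their standard error (SE), and adjusted p-values are from the quasi-likelihood test of edgeR, adjusted by the Benjamini-Hochberg method over 18505 genes, with a threshold of 0.05. YTHDF1 itself was at 48.6, 48.6 and 47.1 CPM in the knockout libraries, against 98.0, 104 and 96.4 CPM in the wild-type libraries. Of 8 epithelial and A549 marker genes, all 8 were tested, and they summed to between 9281 and 9618 CPM in knockout libraries and between 10389 and 10974 CPM in wild-type libraries, most of it ALDH1A1. Of the 8, 4 were called higher and 3 lower, from a log2 fold change of 1.76 for CDH1 to -1.06 for AKR1B10. Over all genes tested, 53.5% were called, 27.2% higher and 26.3% lower. Among markers of other cells, 1 of 5 immune markers (CD14), 0 of 3 endothelial markers and 3 of 4 fibroblast markers passed the filter. A same-strand gene covers 81.7% of the exonic bases of CD68, an immune marker that did not pass, so its level is uncertain. CD14 lay between 3.05 and 4.06 CPM in knockout libraries and between 10.9 and 11.3 CPM in wild-type libraries, while CD3E had 0 counts in all 6. The fibroblast markers summed to between 41.5 and 45.2 CPM in knockout libraries and between 29.8 and 35.4 CPM in wild-type libraries, most of it COL1A1. COL1A1 was called higher, by 0.49 on the log2 scale. The other 2 tested were called lower, COL3A1 by 1.27 and PDGFRA by 1.06, from means of 1.37 and 1.31 CPM in wild-type cells. Mitochondrially encoded mRNAs, a sign of RNA quality, took between 3.72% and 3.98% of counts in knockout libraries and between 5.76% and 5.92% in wild-type libraries. The part of these shifts in the results below was not tested.

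Most members were lower in the knockout libraries. Of the 43, 32 were called lower, 5 were called higher (PCNA, RPA1, ORC4, RPA2 and POLD3) and 6 were not called (RFC2, POLA2, GINS1, GINS3, ORC3 and ORC6). Of the members, 74.4% were thus lower and 11.6% higher, where of all genes tested 53.5% were called, 26.3% lower and 27.2% higher. The median log2 fold change was -0.46 over the members and 0.00 over all genes tested. The members ran from -1.37 for UHRF1 to 0.89 for PCNA. With a change of at least 1.5-fold built into the test, 12 members stayed lower and 1, PCNA, stayed higher, where the same test called 5.47% of all genes lower and 8.5% higher.

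The 2 groups of libraries stood fully apart for 38 of the 43 members, 32 with the knockout libraries lower and 6 with them higher. Over all genes tested, 58.9% stood apart in this way, 29.1% lower and 29.8% higher. The members took between 0.159% and 0.171% of all counts in knockout libraries and between 0.190% and 0.201% in wild-type libraries. Without PCNA, their share was between 0.127% and 0.136% in knockout libraries and between 0.172% and 0.182% in wild-type libraries. In bulk RNA, fewer cells in S phase and less RNA per cell cannot be told apart.

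**Figure D1:**
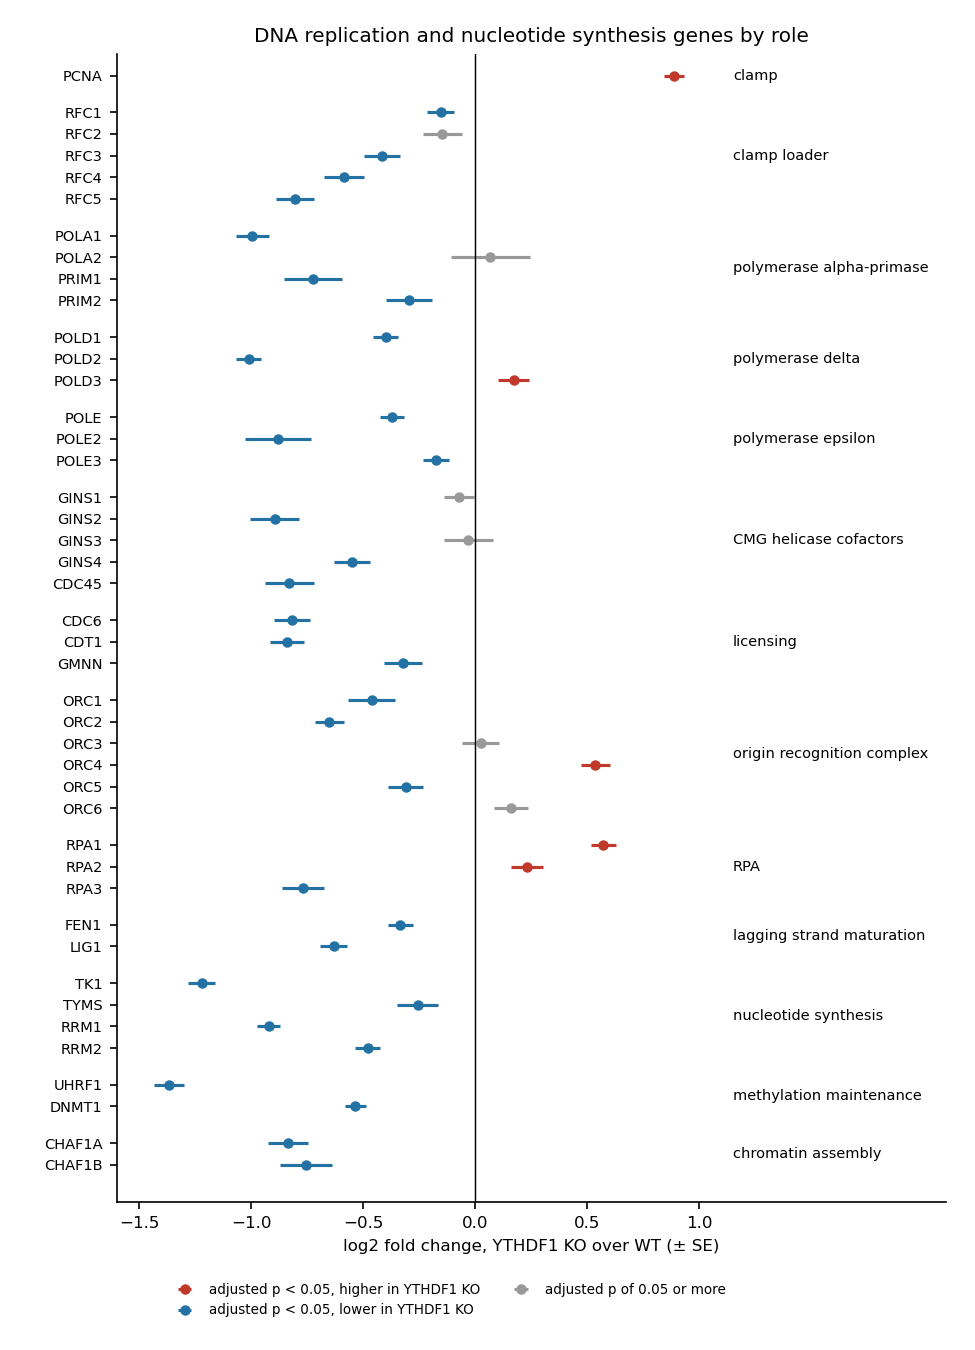
Log2 fold change of each of the 43 members, YTHDF1 knockout over wild type, with the SE of the fit as bars, grouped by role and coloured by the call. Most points lie left of 0, from -1.37 for UHRF1, and PCNA stands furthest right at 0.89.

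PCNA, the sliding clamp, was the member with the highest level per kilobase of exon, at 238 CPM per kb in knockout and 129 CPM per kb in wild-type cells, and the one with the largest rise. In GENCODE release 29 (GRCh38) it occupies bases 5114953 to 5126626 of chromosome 20, read from the minus strand. It was at 377, 328 and 344 CPM in the knockout libraries, against 186, 192 and 189 CPM in the wild-type libraries. Every knockout library was above every wild-type library. PCNA rose by 0.89 on the log2 scale (SE 0.0461, edgeR adjusted p = 1.93e-17), which is 185% of its wild-type level. Leaving out each library in turn gave log2 fold changes between 0.83 and 0.93. No exonic base of PCNA overlaps another annotated gene, and its 3 annotated processed pseudogenes held at most 4 counts in any library.

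PCNA is also known as a target of p53. Of 24 listed p53 targets, a list that leaves PCNA out, 21 were called higher and 2 lower, and the median was 0.67 on the log2 scale. Over all genes tested, 27.2% were called higher and 26.3% lower. CDKN1A, whose product p21 binds PCNA and inhibits cyclin-dependent kinases, was at 446, 495 and 474 CPM in the knockout libraries and at 126, 131 and 122 CPM in the wild-type libraries. It rose by 1.91 on the log2 scale (SE 0.0460, edgeR adjusted p = 8.46e-27). GDF15 rose by 2.03, MDM2 by 1.29 and TNFRSF10B by 1.25. The ratio of CDKN1A counts to PCNA counts within a library was 1.18, 1.51 and 1.38 in knockout libraries and 0.673, 0.680 and 0.644 in wild-type libraries. Whether p53 had a part in the rise of PCNA was not tested.

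Promoter windows from 250 bases before to 50 bases after the annotated start were read from RefSeq (GRCh38.p14) for 39 of the 43 members, taking the first window listed for each gene. For 34 of the 39, the last 30 bases of the window were found in a GENCODE release 29 transcript of the gene. An E2F motif was searched on both strands as the letters TTTCCCGC, TTTCGCGC, TTTGCCGC or TTTGGCGC. It was present in 16 of 39 member windows, or 41.0%, and in 908 of 27305 windows over all genes, or 3.33%. These 27305 windows were not limited to the genes tested, nor matched to the members in base composition. Among members called lower it was in 11 of 30 windows, among those called higher in 1 of 3, that of PCNA, and among those not called in 4 of 6. With every listed window of a gene searched, 43.6% of member genes and 3.99% of all genes held it.

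The windows below are of PCNA, which rose, of UHRF1, CDT1 and CDC6, which fell, and of GINS1, which was not called. They are shown because all 5 hold the E2F letters while their levels moved differently. Each is written 5′ to 3′ on the strand of the gene, with the E2F letters, on either strand, in capitals.
PCNA, chr20:5126573-5126872, minus strand: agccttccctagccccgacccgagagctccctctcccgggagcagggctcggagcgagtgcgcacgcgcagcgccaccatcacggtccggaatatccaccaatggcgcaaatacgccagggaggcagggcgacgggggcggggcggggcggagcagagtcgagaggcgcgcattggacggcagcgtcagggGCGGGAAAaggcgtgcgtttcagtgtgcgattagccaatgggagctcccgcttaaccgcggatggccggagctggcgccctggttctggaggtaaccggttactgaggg
UHRF1, chr19:4909251-4909550, plus strand: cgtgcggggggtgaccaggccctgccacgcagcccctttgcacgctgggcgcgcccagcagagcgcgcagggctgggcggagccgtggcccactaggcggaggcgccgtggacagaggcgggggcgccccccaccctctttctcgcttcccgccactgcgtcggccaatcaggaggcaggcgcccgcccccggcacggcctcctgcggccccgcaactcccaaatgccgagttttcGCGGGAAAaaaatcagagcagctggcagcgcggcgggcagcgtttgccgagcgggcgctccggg
CDT1, chr16:88803539-88803838, plus strand: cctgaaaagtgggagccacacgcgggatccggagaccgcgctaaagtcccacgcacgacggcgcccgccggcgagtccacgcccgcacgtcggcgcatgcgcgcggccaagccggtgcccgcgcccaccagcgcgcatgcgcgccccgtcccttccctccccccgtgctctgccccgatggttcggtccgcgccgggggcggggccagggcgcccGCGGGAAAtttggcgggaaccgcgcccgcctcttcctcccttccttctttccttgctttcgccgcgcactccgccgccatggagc
CDC6, chr17:40287629-40287928, plus strand: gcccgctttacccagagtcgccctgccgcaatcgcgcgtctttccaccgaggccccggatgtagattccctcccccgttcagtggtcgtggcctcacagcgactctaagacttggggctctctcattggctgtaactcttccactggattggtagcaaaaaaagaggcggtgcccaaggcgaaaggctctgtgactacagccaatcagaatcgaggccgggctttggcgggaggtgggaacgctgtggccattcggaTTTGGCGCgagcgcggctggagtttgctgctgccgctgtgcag
GINS1, chr20:25407423-25407722, plus strand: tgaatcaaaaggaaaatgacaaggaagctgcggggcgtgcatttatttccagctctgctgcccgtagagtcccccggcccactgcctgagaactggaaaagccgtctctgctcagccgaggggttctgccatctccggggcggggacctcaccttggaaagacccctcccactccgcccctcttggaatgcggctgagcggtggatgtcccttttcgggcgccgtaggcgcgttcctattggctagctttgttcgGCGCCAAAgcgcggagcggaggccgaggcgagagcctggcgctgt

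Counted from the annotated start, where the base before the start is -1, the E2F letters begin at base -59 in PCNA, -14 in UHRF1, -35 in CDT1, 8 in CDC6 and 6 in GINS1. The GINS1 window ends at base 25407722, before the GENCODE start of the gene at 25407727. Those of UHRF1 and CDT1 begin at bases 4909251 and 88803539, after the GENCODE starts of these genes at 4903080 and 88803213. Positions in every window shown thus rest on the RefSeq start. The CCAAT box, the letters CCAAT on both strands, was in 20 of 39 member windows (51.3%) and in 35.7% of all windows, and 3 copies lie in the PCNA window and 1 in that of UHRF1. The cell cycle homology region, searched as TTTGAA or TTCGAA on both strands, was in 1 of 39 member windows (2.56%, in RRM1) and in 16.6% of all windows. A p53 half-site, searched by its consensus, was in 2 of 39 member windows (5.13%) and in 6.54% of all windows, with no match in the PCNA window. None of these motifs contains another. A match describes letters in a window and is not a measured binding site. The search covered only these windows, so a site elsewhere in a gene would be missed.

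The genes of origin licensing fell together. CDC6, which loads the helicase at origins, was at 27.0, 21.0 and 25.04 CPM in the knockout libraries, against 39.6, 45.9 and 43.1 CPM in the wild-type libraries. It fell by 0.82 on the log2 scale (SE 0.0796, edgeR adjusted p = 1.38e-10). CDT1, its partner in loading, was at 17.3, 17.5 and 18.5 CPM in knockout libraries and at 32.0, 33.5 and 30.2 CPM in wild-type libraries. CDT1 fell by 0.84 (SE 0.0768, edgeR adjusted p = 3.13e-11), and for both genes the groups did not overlap.

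GMNN encodes geminin, the inhibitor that holds CDT1 in check after origins have fired. It was at 17.0, 18.9 and 17.0 CPM in knockout libraries and at 21.9, 23.3 and 21.1 CPM in wild-type libraries, and it fell by 0.32 (SE 0.0841, edgeR adjusted p = 0.00154). The ratio of CDT1 counts to GMNN counts was 1.02, 0.929 and 1.09 in knockout libraries and 1.46, 1.44 and 1.44 in wild-type libraries. The mRNA of the loader was lower relative to that of its inhibitor in every knockout library.

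The 6 subunits of the origin recognition complex went in different directions, with 3 lower, 1 higher and 2 not called. By comparison, 26.3% of all genes tested were called lower and 27.2% higher. ORC2 was at 28.0, 31.2 and 30.3 CPM in knockout libraries, against 47.5, 47.5 and 46.1 CPM in wild-type libraries, and fell by 0.65 (SE 0.0652, edgeR adjusted p = 2.44e-10). ORC4 did the opposite, at 47.7, 50.1 and 54.6 CPM in knockout libraries and 34.8, 33.2 and 37.0 CPM in wild-type libraries. It rose by 0.54 (SE 0.0657, edgeR adjusted p = 1.93e-08). Neither gene's groups overlapped. In GENCODE release 29, 6.58% of the exonic bases of ORC4 and 4.39% of those of ORC2 overlap a gene on the opposite strand.

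ORC1, the subunit that is replaced with each cell cycle, was at 12.3, 10.1 and 11.6 CPM in knockout libraries and at 14.4, 17.8 and 14.9 CPM in wild-type libraries, and fell by 0.46 (SE 0.106, edgeR adjusted p = 0.000377). ORC5 fell by 0.31. ORC3 was at 23.3, 28.0 and 29.2 CPM in knockout libraries and at 24.7, 27.2 and 27.5 CPM in wild-type libraries, with overlapping groups, a log2 fold change of 0.02 (SE 0.0817) and an edgeR adjusted p of 0.830. ORC6 was at 28.0, 29.8 and 29.1 CPM in knockout libraries and at 23.8, 26.1 and 27.9 CPM in wild-type libraries. Its groups only just cleared each other, and with a log2 fold change of 0.16 (SE 0.0755) its edgeR adjusted p was 0.0779. This became 0.0326 without wild-type replicate 3 and 0.0398 with scaling by library size only. Per library, ORC6 counts stood at 0.999, 0.955 and 0.959 times those of ORC2 in the knockout and at 0.503, 0.550 and 0.606 times in the wild type.

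Among the 5 cofactors that turn the loaded helicase on, CDC45 and 2 of the 4 GINS subunits fell and the other 2 were not called. The share of all genes tested that was called lower was 26.3%. CDC45 was at 9.32, 9.66 and 9.16 CPM in knockout libraries and at 14.98, 20.1 and 15.3 CPM in wild-type libraries, and fell by 0.83 (SE 0.110, edgeR adjusted p = 9.49e-08). GINS2 was at 8.27, 9.04 and 7.74 CPM in knockout libraries, against 15.5, 17.3 and 14.1 CPM in wild-type libraries, and fell by 0.90 (SE 0.109, edgeR adjusted p = 1.59e-08). GINS4 was at 17.5, 16.1 and 16.7 CPM in knockout libraries and at 24.6, 24.1 and 24.95 CPM in wild-type libraries, and fell by 0.55 (SE 0.0808, edgeR adjusted p = 5.54e-07). All 3 were lower in each knockout library than in any wild-type library. Opposite-strand genes cover 23.6% of the exonic bases of GINS4 and 10.9% of those of GINS3. How strand was treated in the counting is not given, so both levels are uncertain.

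GINS1 and GINS3, of the same complex, were the members not called. GINS1 was at 38.9, 39.8 and 44.2 CPM in knockout libraries and at 40.1, 44.9 and 44.4 CPM in wild-type libraries, with a log2 fold change of -0.07 (SE 0.0663, edgeR adjusted p = 0.386). GINS3 was at 12.5, 11.004 and 12.8 CPM in knockout libraries and at 13.2, 13.4 and 10.6 CPM in wild-type libraries, with a log2 fold change of -0.03 (SE 0.109, edgeR adjusted p = 0.837). The groups overlapped for both. On a scale per kilobase of exon, GINS1 stood highest of the 4 subunits, at 10.1 CPM per kb in knockout and 10.6 CPM per kb in wild-type cells, against 2.37 to 3.06 and 2.43 to 4.78 CPM per kb for the other 3. Whether the GINS subunits differ in their response was not tested.

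**Figure D2:**
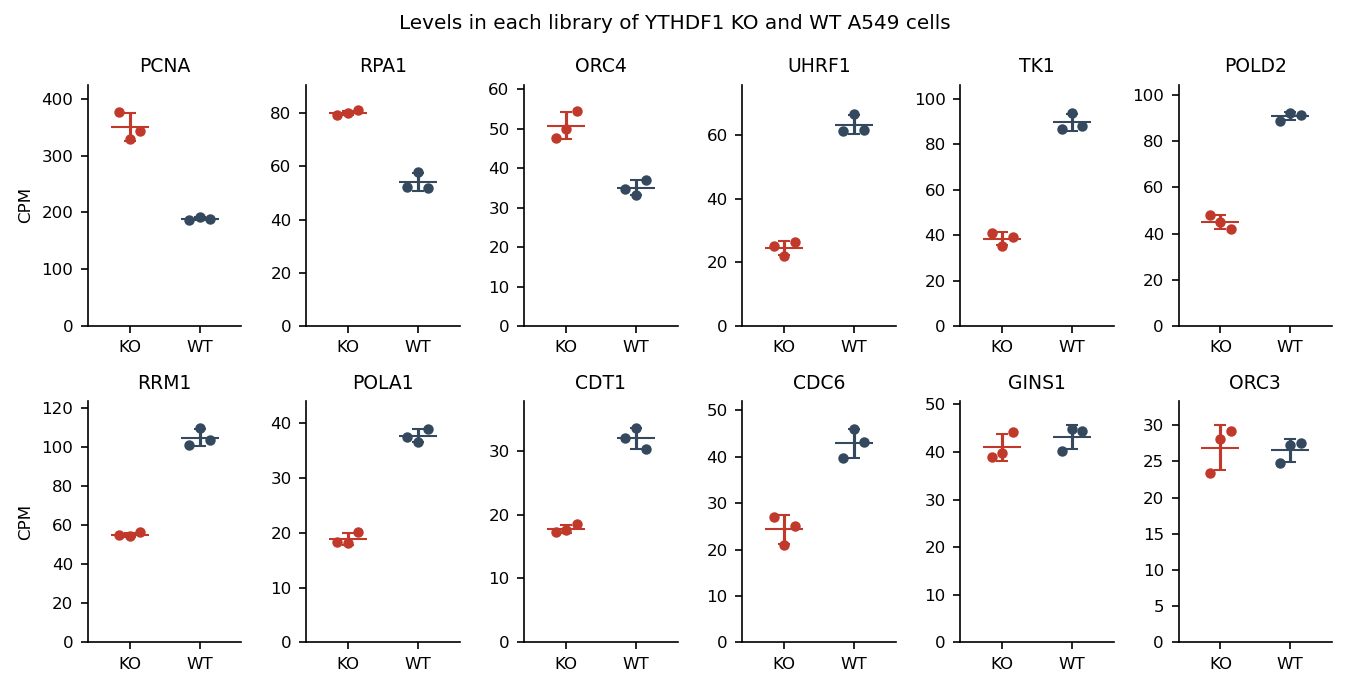
CPM of 12 members in each library, with the mean and SD of each group of 3 as a dash and bar, and YTHDF1 knockout (KO) left of wild type (WT). PCNA, RPA1 and ORC4 are higher in every knockout library, 7 genes from UHRF1 to CDC6 are lower in each, and GINS1 and ORC3 overlap.

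Of polymerase alpha-primase, which starts each new strand with a short primer, 3 subunits fell and 1 was not called. Among all genes tested, 26.3% were called lower. POLA1, the catalytic subunit, on chromosome X, was at 18.3, 18.2 and 20.2 CPM in knockout libraries and at 37.5, 36.6 and 39.0 CPM in wild-type libraries. It fell by 1.00 (SE 0.0740, edgeR adjusted p = 2.1e-13), to 50.1% of its wild-type level. PRIM1, the primase catalytic subunit, was at 5.85, 5.10 and 6.41 CPM in knockout libraries and at 9.36, 10.3 and 9.09 CPM in wild-type libraries, and fell by 0.73 (SE 0.130, edgeR adjusted p = 1.6e-05). Neither gene's groups overlapped.

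PRIM2, the large primase subunit, was at 11.8, 11.1 and 10.3 CPM in knockout libraries and at 14.3, 12.9 and 13.3 CPM in wild-type libraries. Its fall of 0.30 (SE 0.102, edgeR adjusted p = 0.0147) lost its call without wild-type replicate 1, at an adjusted p of 0.0721, and without knockout replicate 3, at 0.0808. POLA2, the accessory subunit, was at 3.56, 4.07 and 3.61 CPM in knockout libraries and at 3.77, 3.38 and 3.57 CPM in wild-type libraries, with overlapping groups and a log2 fold change of 0.07 (SE 0.178, edgeR adjusted p = 0.781). POLA2 rested on between 91 and 166 counts a library. Same-strand genes cover 35.1% of the exonic bases of POLA2 and 16.2% of those of PRIM1, which makes both levels uncertain.

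The subunits of polymerase delta, which copies the lagging strand, went in different directions. POLD2, an accessory subunit, on chromosome 7 from 44114681 to 44124358, was at 48.1, 45.1 and 42.0 CPM in knockout libraries and at 88.9, 92.3 and 91.2 CPM in wild-type libraries. It fell by 1.01 (SE 0.0560, edgeR adjusted p = 1.01e-16), to 49.6% of its wild-type level. POLD1, the catalytic subunit, was at 52.98, 50.8 and 50.1 CPM in knockout libraries and at 66.8, 68.6 and 67.7 CPM in wild-type libraries, and fell by 0.40 (SE 0.0546, edgeR adjusted p = 1.46e-07). Both sets of libraries stood clear of each other.

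POLD3, a further accessory subunit that binds PCNA, was slightly higher. It was at 35.6, 33.4 and 36.6 CPM in knockout libraries and at 29.01, 32.2 and 32.7 CPM in wild-type libraries, and rose by 0.17 (SE 0.0703, edgeR adjusted p = 0.0403). The groups did not overlap, but their nearest libraries were close. The call was lost in DESeq2, at an adjusted p of 0.0821, with no filter on low counts, at 0.0544, without wild-type replicate 1, at 0.227, without knockout replicate 1, at 0.0824, and without knockout replicate 3, at 0.139.

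All 3 listed subunits of polymerase epsilon, which copies the leading strand, fell, where 26.3% of all genes tested were called lower. POLE, the catalytic subunit, was at 66.3, 64.3 and 71.5 CPM in knockout libraries and at 85.4, 88.5 and 87.9 CPM in wild-type libraries, and fell by 0.37 (SE 0.0525, edgeR adjusted p = 2.88e-07). POLE2 was at 5.48, 4.17 and 4.55 CPM in knockout libraries and at 7.46, 10.4 and 8.37 CPM in wild-type libraries, and fell by 0.88 (SE 0.149, edgeR adjusted p = 5.99e-06). The fall was smaller for POLE3, a histone-fold subunit also found in chromatin remodelling complexes, at 54.2, 50.3 and 57.7 CPM in knockout libraries and 60.03, 61.6 and 61.4 CPM in wild-type libraries. POLE3 fell by 0.17 (SE 0.0582, edgeR adjusted p = 0.0119), and without knockout replicate 2 its adjusted p was 0.135. POLE3 counts were 0.817, 0.782 and 0.808 times those of POLE in knockout libraries and 0.703, 0.696 and 0.698 times in wild-type libraries.

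Of the 5 clamp loader genes, 4 were called lower and RFC2 was not called, where 26.3% of all genes tested were called lower. RFC5, a small subunit, was at 13.9, 14.7 and 15.2 CPM in knockout libraries and at 23.4, 26.8 and 26.5 CPM in wild-type libraries, and fell by 0.81 (SE 0.0851, edgeR adjusted p = 8.36e-10). RFC4 was at 14.1, 12.2 and 13.7 CPM in knockout libraries and at 19.5, 21.1 and 19.5 CPM in wild-type libraries, and fell by 0.59 (SE 0.0911, edgeR adjusted p = 1.57e-06). RFC3 was at 25.9, 22.4 and 22.9 CPM in knockout libraries and at 30.2, 29.9 and 34.5 CPM in wild-type libraries, and fell by 0.42 (SE 0.0786, edgeR adjusted p = 3.22e-05). For these 3 the groups did not overlap. Of RFC5 exonic bases, 10.6% overlap a gene on the opposite strand.

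RFC1, the large subunit that opens the clamp, and RFC2 had the smallest fold changes of the 5. RFC2 was at 24.0, 19.95 and 23.1 CPM in knockout libraries and at 26.4, 26.3 and 21.7 CPM in wild-type libraries, with a log2 fold change of -0.15 (SE 0.0873, edgeR adjusted p = 0.157). Without wild-type replicate 3 the adjusted p of RFC2 was 0.0311. RFC1 fell by 0.15 (SE 0.0595, edgeR adjusted p = 0.0281), and this call did not hold in DESeq2 (0.0517), with library size only (0.0696), with no filter (0.0503), or without wild-type replicate 1 (0.0631), wild-type replicate 2 (0.117), knockout replicate 1 (0.0893) or knockout replicate 2 (0.128).

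Counts of PCNA relative to those of RFC4 in the same library were 26.8, 26.9 and 25.1 in the knockout and 9.58, 9.12 and 9.68 in the wild type. Relative to FEN1, the nuclease that PCNA tethers to remove flaps from the lagging strand, they were 6.89, 6.42 and 6.36 in the knockout and 2.83, 2.73 and 2.88 in the wild type. A ratio of counts within a library does not depend on how libraries are scaled. The RFC1 to RFC4 ratio was 3.46, 3.98 and 3.87 in the knockout and 2.86, 2.77 and 2.73 in the wild type.

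FEN1 itself was at 54.7, 51.2 and 54.0 CPM in knockout libraries and at 66.0, 70.4 and 65.6 CPM in wild-type libraries, and fell by 0.34 (SE 0.0557, edgeR adjusted p = 4.52e-06). LIG1, the ligase that then seals the nick, was at 35.02, 33.2 and 36.9 CPM in knockout libraries and at 54.3, 55.5 and 53.2 CPM in wild-type libraries. LIG1 fell by 0.63 (SE 0.0620, edgeR adjusted p = 1.54e-10), and neither gene's groups overlapped.

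Within RPA, the trimer that coats single-stranded DNA, the 2 larger subunits rose and the smallest fell. Among all genes tested, 27.2% were called higher and 26.3% lower. RPA1, which holds the main DNA-binding domains, lies on chromosome 17 from 1829702 to 1900082. It was at 79.3, 80.0 and 81.0 CPM in knockout libraries and at 52.3, 58.0 and 51.7 CPM in wild-type libraries, and rose by 0.57 (SE 0.0551, edgeR adjusted p = 1.12e-10). RPA2, a subunit phosphorylated on replication stress, was at 31.2, 29.7 and 30.5 CPM in knockout libraries and at 25.5, 24.5 and 27.8 CPM in wild-type libraries, and rose by 0.23 (SE 0.0733, edgeR adjusted p = 0.00827). Both were higher in every knockout library.

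RPA3 was at 11.7, 13.5 and 12.1 CPM in knockout libraries, against 19.0, 22.5 and 22.1 CPM in wild-type libraries. It fell by 0.77 (SE 0.0942, edgeR adjusted p = 1.87e-08), with no overlap. Per kilobase of exon, RPA1, RPA2 and RPA3 were at 14.6, 15.1 and 3.84 CPM per kb in knockout cells and at 9.83, 12.8 and 6.56 CPM per kb in wild-type cells. The summed CPM of the trimer's genes was between 122 and 124 in knockout libraries and between 96.9 and 105 in wild-type libraries.

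**Figure D3:**
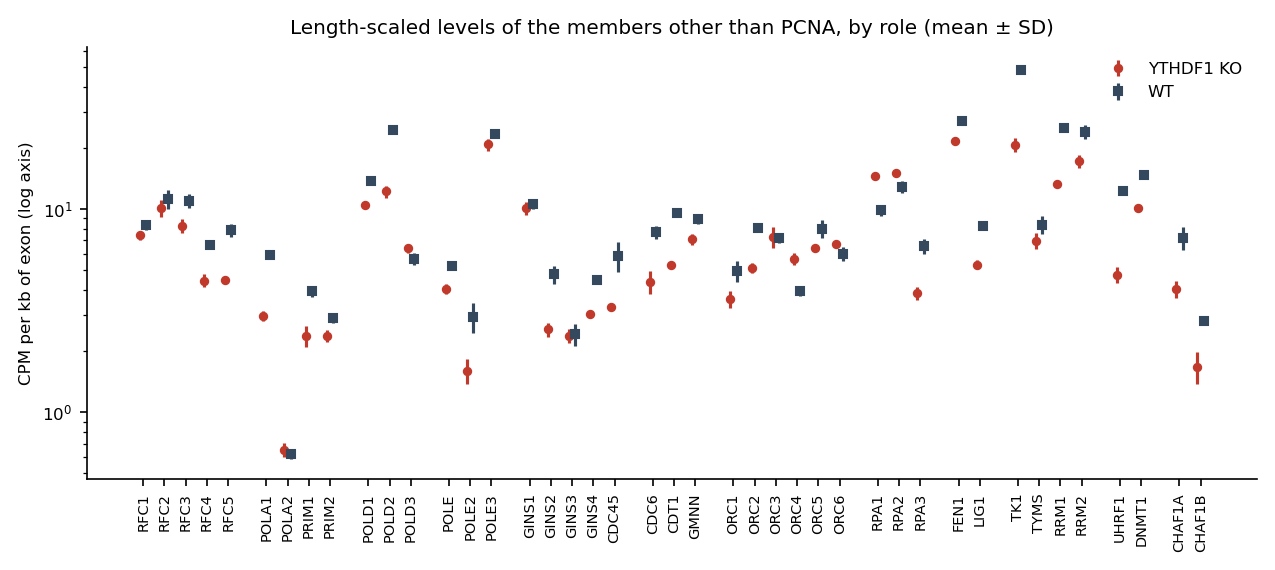
Mean CPM per kilobase of exon (log axis) of the 42 members other than PCNA, with SD over 3 libraries, for YTHDF1 knockout and wild-type cells, grouped by role. RPA1 and RPA2 lie higher and RPA3 lower in the knockout, and POLA2 is the lowest member in both groups.

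All 4 member genes of deoxynucleotide supply fell, where 26.3% of all genes tested were called lower. TK1, the thymidine kinase of the salvage pathway, on chromosome 17 from 78174075 to 78187233, was at 41.1, 35.2 and 39.0 CPM in knockout libraries and at 86.9, 93.8 and 88.2 CPM in wild-type libraries. It fell by 1.22 (SE 0.0595, edgeR adjusted p = 3.2e-18), to 42.9% of its wild-type level. RRM1, the large subunit of ribonucleotide reductase, was at 55.0, 54.3 and 56.3 CPM in knockout libraries and at 101, 109.5 and 103 CPM in wild-type libraries, and fell by 0.92 (SE 0.0515, edgeR adjusted p = 1.27e-16). The knockout libraries lay well below the wild-type libraries for both.

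RRM2, the small subunit made in S phase, was at 89.9, 85.5 and 98.4 CPM in knockout libraries and at 121, 139 and 123 CPM in wild-type libraries, and fell by 0.48 (SE 0.0552, edgeR adjusted p = 4.89e-09). A same-strand gene covers 20.2% of its exonic bases, which makes its level uncertain. RRM2 counts were 1.64, 1.57 and 1.75 times those of RRM1 in knockout libraries and 1.20, 1.27 and 1.19 times in wild-type libraries. TYMS, which makes thymidylate, fell by 0.26 (SE 0.0918, edgeR adjusted p = 0.0180), and its adjusted p was 0.129 without wild-type replicate 2 and 0.120 without knockout replicate 1. Genes on the opposite strand, ENOSF1 and TYMSOS, overlap 46.6% of TYMS exonic bases, so its level is uncertain. ENOSF1 had a log2 fold change of -0.28.

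RRM2B, which is no member, encodes the alternative small subunit of ribonucleotide reductase that p53 induces. It was at 123, 136 and 133 CPM in knockout libraries and at 72.7, 69.8 and 76.1 CPM in wild-type libraries, and rose by 0.84 (SE 0.0511, edgeR adjusted p = 1.25e-15). The ratio of RRM2B counts to RRM2 counts was 1.37, 1.59 and 1.35 in knockout libraries and 0.6004, 0.503 and 0.618 in wild-type libraries. Per kilobase of exon, RRM2B and RRM2 were at 23.5 and 17.2 CPM per kb in knockout cells and at 13.1 and 24.0 CPM per kb in wild-type cells, so their order differed between the groups.

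Ratios were compared for 10 pairs of genes by an exact two-sided permutation test over libraries, in which 3 against 3 cannot give a p below 0.1. For 9 of the 10 pairs the groups did not overlap and p was 0.1, or 0.111 after Benjamini-Hochberg adjustment over the 10, so none could pass a threshold of 0.05. The exception was ORC1 to ORC2, with ratios of 0.440, 0.325 and 0.383 in the knockout and 0.304, 0.375 and 0.323 in the wild type, at an exact p of 0.2. The largest shifts were those of PCNA to RFC4, which was 2.78 times higher in the knockout, RRM2B to RRM2, which was 2.50 times higher, and PCNA to FEN1, which was 2.33 times higher.

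**Figure D4:**
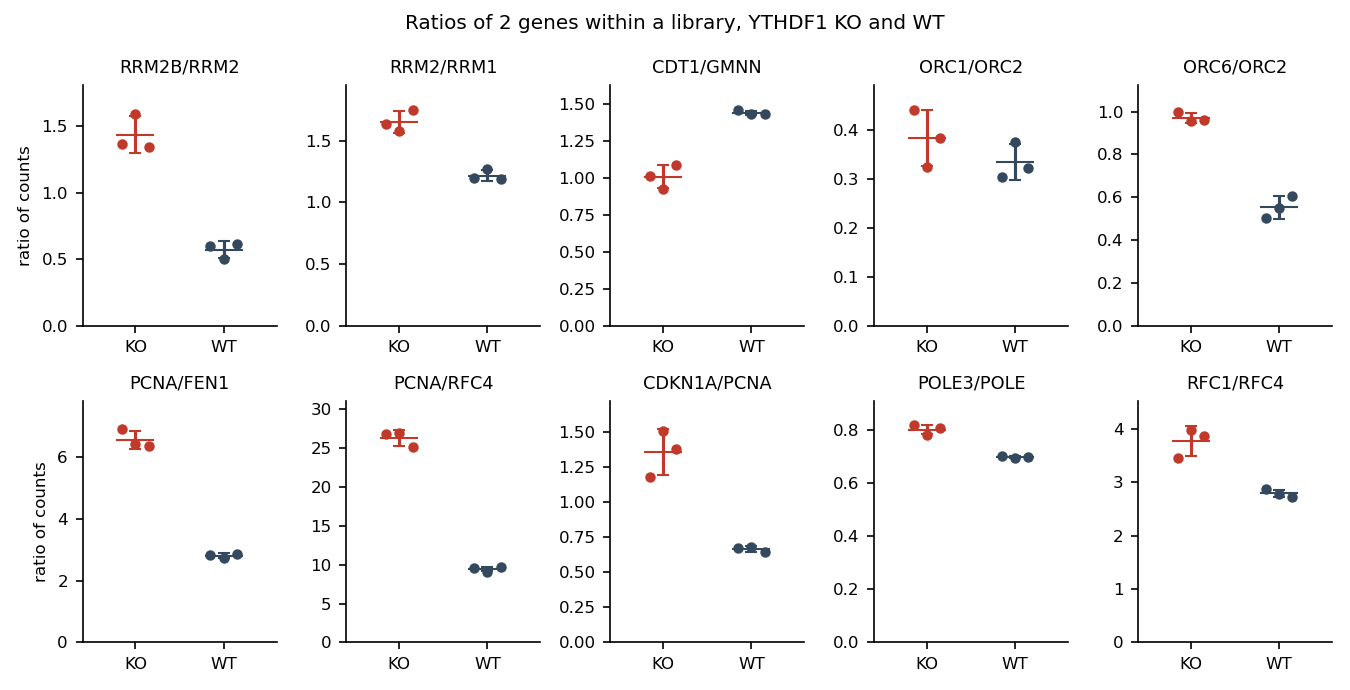
Ratios of the counts of 2 genes within each library for the 10 pairs, with the mean and SD of each group of 3, and YTHDF1 knockout (KO) left of wild type (WT). The groups are apart for every pair other than ORC1/ORC2, and CDT1/GMNN is the pair that is lower in the knockout.

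All 4 genes for maintaining DNA methylation and chromatin behind the fork fell, where 26.3% of all genes tested were called lower. UHRF1, which recognises DNA methylated on 1 strand and recruits DNMT1, lies on chromosome 19 from 4903080 to 4962154. It was at 25.2, 21.98 and 26.2 CPM in knockout libraries and at 61.3, 66.7 and 61.7 CPM in wild-type libraries. Its fall of 1.37 (SE 0.0685, edgeR adjusted p = 6.9e-18), to 38.8% of the wild-type level, was the largest among the members. DNMT1, the maintenance methyltransferase, was at 101, 95.8 and 99.97 CPM in knockout libraries and at 148, 145 and 138 CPM in wild-type libraries, and fell by 0.54 (SE 0.0469, edgeR adjusted p = 1.14e-11).

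CHAF1A and CHAF1B encode subunits of CAF-1, which deposits histones H3 and H4 on new DNA. CHAF1A was at 18.4, 15.3 and 18.2 CPM in knockout libraries and at 28.1, 35.4 and 29.4 CPM in wild-type libraries, and fell by 0.84 (SE 0.0891, edgeR adjusted p = 1.01e-09). CHAF1B was at 9.10, 6.81 and 9.73 CPM in knockout libraries and at 14.2, 15.1 and 14.0 CPM in wild-type libraries, and fell by 0.76 (SE 0.117, edgeR adjusted p = 1.44e-06). Groups did not overlap for any of these 4 genes. RBBP4, the third subunit, which other chromatin complexes share, is no member and had a log2 fold change of -0.07 (SE 0.0466, edgeR adjusted p = 0.183). An opposite-strand gene, SYNC, covers 18% of the exonic bases of RBBP4.

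Other genes of the same processes were read as lists beside the members. Over all genes tested, 26.3% were called lower and 27.2% higher. Of 27 tested fork and firing factors, 20 were called lower and 0 higher, and the median was -0.39 on the log2 scale. The topoisomerase gene TOP2A fell by 1.42 and TOP2B fell by 1.05, WDHD1, which ties polymerase alpha to the helicase, fell by 0.93, and TOPBP1, which helps origins fire, fell by 0.68. The 1 listed gene not tested, RNASEH2A, had between 3 and 15 counts a library. A same-strand gene, THSD8, covers 30.8% of the exonic bases of RNASEH2A, so its level is uncertain. Of 8 histone chaperones, 4 fell and 2 rose, with a median of -0.13. SSRP1 of the FACT complex fell by 0.73 and its partner SUPT16H fell by 0.39, while HIRA, which deposits histones outside replication, rose by 0.75 (SE 0.113, edgeR adjusted p = 8.18e-07) and ASF1A rose by 0.59. A same-strand gene, C22orf39, covers 66.5% of the exonic bases of HIRA, so its level is uncertain.

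Of 14 other genes of deoxynucleotide supply, 7 were called lower and 3 higher, with a median log2 fold change of -0.21. For all genes tested, the shares were 26.3% lower and 27.2% higher. DTYMK, the next kinase after TK1, fell by 1.07. SAMHD1, which breaks deoxynucleotides down and is also induced by interferon, was at 384 ± 5.68 CPM in knockout cells and at 21.4 ± 2.60 CPM in wild-type cells (SD, n = 3), and rose by 4.16. An opposite-strand gene covers 10.3% of its exonic bases. Of 23 genes of purine and pyrimidine synthesis, 15 were called lower and 3 higher, with a median of -0.45. IMPDH2 of guanine nucleotide synthesis fell by 1.48, CAD of pyrimidine synthesis fell by 1.05 and PFAS of purine synthesis fell by 0.95, while CTPS1, which makes CTP, rose by 0.93.

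The 43 members covered a wider range than the 6 helicase and 28 mitosis genes did, and a longer list can span more. The 23 genes of purine and pyrimidine synthesis ran from -1.48 to 0.93 on the log2 scale. All 6 MCM helicase subunits were called lower, between -1.499 and -0.69 on the log2 scale, with a median of -0.98. All 28 listed mitosis genes were called lower, between -1.41 and -0.44, with a median of -0.96. The members' median was -0.46, with 5 of 43 higher. Of 8 E2F transcription factor genes, 3 were called lower (E2F1, E2F7 and E2F8) and 3 higher (E2F4, E2F5 and E2F6), with a median of -0.15. That is 37.5% each way, where of all genes tested 26.3% were called lower and 27.2% higher. E2F1 fell by 0.40, E2F7 by 0.33 and E2F8 by 1.29. E2F4 rose by 0.31, E2F5 by 0.65 and E2F6 by 0.45, and the other 2 were not called. Opposite-strand genes cover 18.6% of the exonic bases of E2F5. No test of the difference between lists was made.

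**Figure D5:**
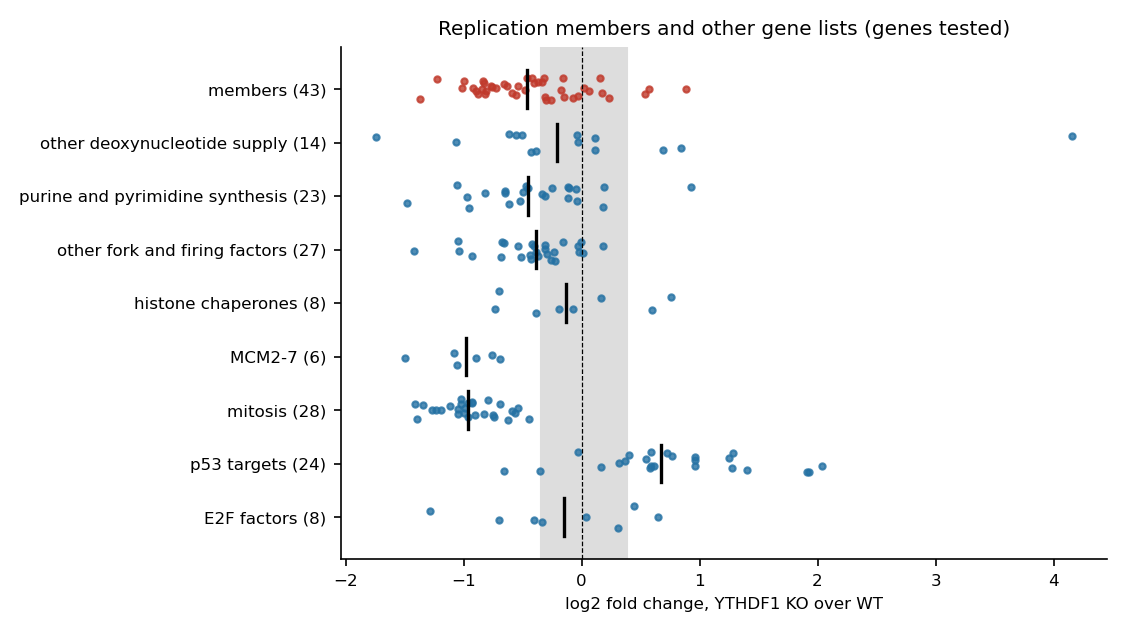
Log2 fold change, YTHDF1 knockout over wild type, of each tested gene of the members and of 8 other lists, with each list's median as a bar. The grey band spans the quartiles of all genes tested (-0.34 to 0.38), and the members' median of -0.46 lies left of it, as do the medians of purine and pyrimidine synthesis, of other fork and firing factors, of MCM and of mitosis.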

How the data were processed

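The authors deposited whole-number read counts per Ensembl gene, 1 column per library. Per the submitters' processing notes, the tools were featureCounts 2.0.1, STAR 2.7.0d, edgeR 3.32.1 and Trim Galore 0.6.6, with GRCh38. Libraries were made with a TruSeq stranded kit, per the labels' protocols. No source used here gives the annotation, strand setting or multimapping rule. Where reads of overlapping genes were dropped or shared, counts of such genes are affected.

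Counts were tested with edgeR 4.0.16 in R 4.3.3 (filterByExpr, TMM, genotype only, quasi-likelihood, two-sided). SE is the fold change over the square root of F. Exon lengths, overlaps and coordinates are from GENCODE 29, and 42000 of 60617 identifiers had a symbol in the name table. Alternatives used DESeq2 1.42.0 and limma 3.58.1, and the edgeR fit was tested on simulated data. Ratios used scipy 1.17.1. Members and lists were chosen with earlier results of these data known. Library values are given for up to 3 members per role with the smallest adjusted p, and for all members called higher or not called. From each other list up to 4 genes with the smallest adjusted p are named, except 1 gene that is not reported here, and RBBP4, E2F1 and E2F7 were added after their values were seen. Promoter windows were chosen likewise. Same-group libraries differed by more than sampling noise (chi-square per degree of freedom 4.4 to 6.55).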

Additional observations from a re-analysis of the deposited data

How the results depend on the processing

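Calls of the members were recomputed under 15 alternatives. With a 1.5-fold change built into the test, 2585 genes were called in all, with 12 members lower and 1 higher, against 9893, 32 and 5 without it. Leaving out each library in turn gave 9059 to 9486 genes called, 30 to 33 members lower and 4 to 6 higher, and a shift of ORC1 to ORC2 between 0.09 and 0.30 (log2). Other alternatives stayed within 1.5 times these counts, and 0 of 645 member comparisons reversed. Outside the 1.5-fold setting, 36 of 43 members kept their call under every alternative. The other 7 were RFC1, RFC2, PRIM2, POLD3, POLE3, ORC6 and TYMS. PRIM2, POLE3, TYMS, RFC1 and POLD3 also missed an adjusted p of 0.01. With the replicate number as a block, 9703 genes were called, with 32 members lower and 5 higher, and the block changed no member's call. Same-numbered libraries did not deviate together (r of -0.026, -0.0143 and 0.00785), and not every library correlated best with its own number. Depth limits POLA2, POLE2 and PRIM1 most, the members with the lowest CPM and the largest SE (0.178, 0.149 and 0.130).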
